A study of Mus musculus with 12 samples.

Results

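Glycolysis splits glucose into pyruvate in the cytosol and yields ATP without oxygen, and activated macrophages are known for running it fast and for turning much of the pyruvate into lactate. Sugar enters through transporters, is trapped by hexokinases and committed to the pathway at phosphofructokinase. Lactate is made by lactate dehydrogenase and leaves the cell through monocarboxylate transporters. The 10 genes described here follow that route. They are the glucose transporter Slc2a1, the hexokinases Hk1 and Hk2, the phosphofructokinase Pfkp and its activator-producing enzyme Pfkfb3, the aldolases Aldoa and Aldoc, the kinase Pgk1, the dehydrogenase Ldha and the lactate exporter Slc16a3. They were chosen by name from the 43278 gene symbols of the table, with earlier results of these data known. The shares of them called below are therefore not those of a list picked blind. All 10 passed the filter on low values in every comparison.

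The cells were peritoneal macrophages (PMφs) of wild-type mice, drawn into the peritoneal cavity with thioglycolate over 4 d, harvested by lavage and used after 18 h of adherence in culture. The data are poly(A) RNA-seq libraries of 12 cultures, 3 for each of 4 groups. Control PMφs received neither agent, and oxLDL PMφs were cultured with 100 µg/ml human medium oxidized low-density lipoprotein (oxLDL), the particle whose uptake loads macrophages with lipid, for 24 h. LPS PMφs received 10 ng/ml lipopolysaccharide (LPS), a bacterial ligand of TLR4, and oxLDL+LPS PMφs received oxLDL followed by LPS. The length of the LPS stimulation is not stated for these libraries in the sources used here. According to the methods of the study, male and female C57BL/6J littermates of 8 to 12 wk were used, and their cells were pooled before being divided among the groups, so that a library stands for a pool of mice. The design asks how LPS changes these transcripts and whether oxLDL accumulation changes that response.

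The deposited value is called the normalized count here. It is a read count divided by 1 factor per library, and its total per library was 17.2 to 17.7 M in control and oxLDL libraries and 22.1 to 26.4 M in libraries with LPS. The factors, read from the spacing of low values, imply 16.7 to 26.2 M counted reads per library. Markers of macrophages were high throughout, with all 8 genes of the list detected and a summed normalized count of 231967 to 347950. Defining markers of T cells, neutrophils, mast cells and erythroid cells summed to at most 258 per library, B cell markers to at most 86, markers of large peritoneal macrophages to 322 to 843, and Ly6g and Prg2, markers of neutrophils and eosinophils, were at 0 in every library. Siglecf made up nearly all of the eosinophil list, whose sum was 188 to 386 without LPS and 57 to 124 with it. Il1b, the LPS-induced cytokine, was at 7 to 20 in the 6 libraries without LPS and at 7630 to 152939 in the 6 libraries with it. The scavenger receptor gene Cd36 was at 32725 to 40346 in control and 53483 to 93423 in oxLDL libraries.

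Some libraries stood apart by their sex-linked genes and their stromal markers. Xist, expressed from the inactive X chromosome of female cells, was at 1 in control and 2 in oxLDL libraries numbered 1, but at 6331 in LPS and 3812 in oxLDL+LPS libraries of the same number. The Y-linked Ddx3y was at 1156 and 1132 in the former and at 459 and 439 in the latter. Libraries numbered 1 with and without LPS therefore differed in their mix of male and female RNA. A different pool and a wrong label cannot be told apart here, and with a wrong label the number 1 values would stand for another group. Libraries numbered 2 held at most 2 Ddx3y counts and those numbered 3 held both transcripts, in all 4 groups. Markers of mesothelial cells and fibroblasts, 7 of 7 detected, summed to 15612 to 27474 in libraries numbered 1, 13228 to 15911 in those numbered 2 and 4419 to 5274 in those numbered 3. The replicate number therefore pairs libraries within an LPS state, and LPS differences are given with and without number 1. In these bulk libraries, fewer cells of a type and less RNA per cell cannot be told apart.

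Levels can be compared between the genes only per length. The length used was that of all annotated exons of a gene joined over its isoforms, which can exceed the transcript expressed. It was 13401 bases for Pfkp, so the order of the middle genes depends in part on the annotation. Undivided, Pfkp at a mean of 2334 normalized counts in control was above Hk1 at 1842, Hk2 at 1780 and Slc16a3 at 1742. Per kilobase of exon, Aldoa, which cleaves fructose 1,6-bisphosphate, was the most abundant of the 10 in control PMφs, at 9608 ± 579 normalized counts per kb (SD, n = 3). Ldha followed at 3772 ± 714 and Pgk1 at 1512 ± 245 normalized counts per kb. Slc2a1 came next at 729 ± 206 normalized counts per kb, and its range did not overlap with those of its neighbours in the order. Slc16a3 at 328 ± 96.9 and Hk2 at 298 ± 67.8 normalized counts per kb overlapped with each other, as did Hk1 with Pfkfb3 and Pfkfb3 with Pfkp. Aldoc was the lowest in all 4 groups, at 81.0 ± 14.8 normalized counts per kb in control and 29.2 ± 8.67 in oxLDL+LPS PMφs. The first 3 places were the same in every group. Hk2 was in place 6 in control and oxLDL PMφs and in place 5 in both groups with LPS, and its level was 1074 ± 200 normalized counts per kb with LPS alone. In LPS PMφs its range overlapped with that of Slc2a1 above it and that of Pfkfb3 below it.

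**Figure D1:**
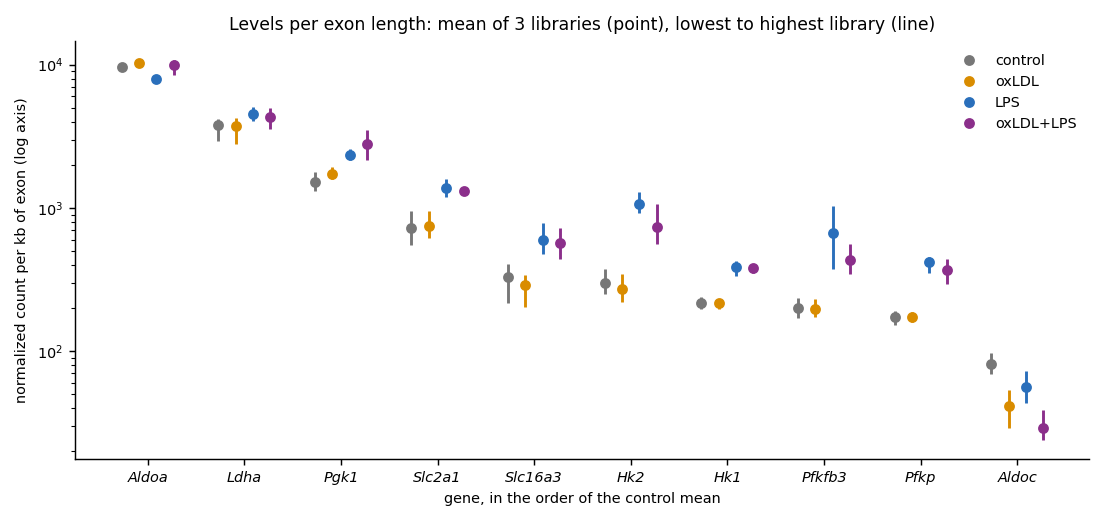
Normalized count per kilobase of exon for the 10 genes, ordered by the control mean, on a log axis. Points are means of 3 libraries and lines run from the lowest to the highest library of each group. Aldoa was highest and Aldoc lowest in every group, and Hk2 rose from 298 in control to 1074 with LPS.

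The promoters of 3 genes are shown because these genes carry the main contrasts below. Hk2 had the largest LPS difference of the 10 genes, Aldoc had the largest oxLDL difference and Ldha had an LPS direction that depended on scaling. The sequences are from RefSeq (GRCm38.p6) and run 5′ to 3′ on the strand of the gene, from 250 bases before to 50 bases after an annotated start. Capitals mark ACGTG and GCGTG on either strand, the core letters of elements bound by hypoxia-inducible factors, which are known activators of glycolysis genes. For Aldoc and Ldha the first of 2 listed starts is shown.
Hk2 promoter, chr6:82774405-82774704, minus strand: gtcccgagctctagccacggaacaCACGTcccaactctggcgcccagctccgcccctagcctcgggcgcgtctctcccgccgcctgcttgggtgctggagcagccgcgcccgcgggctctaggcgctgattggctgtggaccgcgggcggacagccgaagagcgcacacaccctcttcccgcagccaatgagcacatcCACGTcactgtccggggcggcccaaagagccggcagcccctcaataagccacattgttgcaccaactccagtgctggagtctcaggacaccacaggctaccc
Aldoc promoter, chr11:78322823-78323122, plus strand: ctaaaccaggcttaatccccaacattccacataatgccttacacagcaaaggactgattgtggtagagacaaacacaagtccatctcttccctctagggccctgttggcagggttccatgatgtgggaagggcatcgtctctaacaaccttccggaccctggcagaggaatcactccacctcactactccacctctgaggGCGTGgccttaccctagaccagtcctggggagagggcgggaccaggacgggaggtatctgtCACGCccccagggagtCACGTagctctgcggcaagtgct
Ldha promoter, chr7:46845554-46845853, plus strand: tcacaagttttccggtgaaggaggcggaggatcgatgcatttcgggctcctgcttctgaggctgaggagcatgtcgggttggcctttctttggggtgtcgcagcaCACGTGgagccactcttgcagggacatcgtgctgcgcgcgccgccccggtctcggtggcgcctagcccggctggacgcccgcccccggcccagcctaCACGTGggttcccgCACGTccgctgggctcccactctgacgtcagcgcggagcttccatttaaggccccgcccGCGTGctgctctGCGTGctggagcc
The Hk2 window held 2 marked stretches, the Aldoc window 3 and the Ldha window 5. In Ldha, 2 of the stretches were the palindrome CACGTG, the E-box, which contains ACGTG on both strands. Of the 16 promoters listed for the 10 genes, 14 held ACGTG or GCGTG, and each gene had it in at least 1 promoter. Among all 32851 promoters of this length in the table, 43.8% held 1 of these motifs. Base composition differs between these sets, with a median GC content of 65.0% in the 16 promoters and 52.7% in all of them, and each motif contains a CG. The letters TGANTCA, bound by AP-1, were in 1 of the 16 promoters (Aldoa) against 7.81% of all. A match is a description of the letters and not a bound site.

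LPS was first compared with control in PMφs without oxLDL. LPS raised 7 of the 10 transcripts, lowered both aldolases and left Ldha short of the threshold. At an adjusted p under 0.1 (limma with Benjamini-Hochberg adjustment over 13023 genes), 9 of the 10 genes were called, against 61.7% of all genes tested. The 7 calls of higher levels compare with 31.4% of all genes, and the 2 of lower levels with 30.3%. The median log2 difference was 0.85 over the 10 genes and 0.00 over all genes tested. In 7 genes all LPS libraries lay above all control libraries and in 1 all lay below, against 32.1% and 31.1% of all genes and 63.2% for both directions. With the replicate number as a block, all 10 genes were called, 8 higher and 2 lower, against 68.7% of all genes, with 34.6% higher and 34.1% lower. The block without number 1 gave the same counts, against 66.9%. All 12 libraries in the fit with the block gave them too, against 71.5%, with 35.8% higher and 35.6% lower. When every library was scaled to the same total, the median of all genes moved to −0.48, 2170 genes were called higher and 7224 lower in place of 4093 and 3946, and 72.5% of genes were called, 16.8% higher and 55.8% lower. Then 5 members were called higher and 2 lower. With quantile normalization 61.9% of genes were called, 24.9% higher and 37% lower, and 4 members were higher and 3 lower. Changes are given below on the deposited scale, with the equal-total value where it changes the call of a member.

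Slc2a1 (ENSMUSG00000028645, GRCm38 chr4:119108711-119137983, plus strand) encodes GLUT1, the main glucose importer of activated macrophages. Its normalized counts in libraries numbered 1, 2 and 3 were 2394, 3345 and 1929 in control and 4834, 5566 and 4206 in LPS PMφs. All LPS libraries lay above all control libraries, and number 2 was the highest in both groups. The log2 difference was 0.96 ± 0.202 (SE), a 1.94-fold rise (adjusted p = 0.00499). With quantile normalization it was 0.41 and was not called (adjusted p = 0.153). The antisense gene Gm12868 overlaps 2.99% of its exon bases, and antisense or opposite-strand genes overlap 1.84% of those of Hk1 (Hk1os), 5.58% of Pfkp (Pitrm1) and 0.859% of Aldoa (Fam57b).

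The hexokinases phosphorylate glucose and trap it in the cell. Hk2 (ENSMUSG00000000628, chr6:82725025-82774454, minus strand), the inducible and insulin-responsive form, was at 1606, 2242 and 1491 in control and 5466, 7750 and 6018 in LPS PMφs. No LPS library was near the control range, and the log2 difference was 1.86 ± 0.186, a 3.62-fold rise (adjusted p = 0.000106). The ubiquitous Hk1 (ENSMUSG00000037012, chr10:62268855-62379908, minus strand) was at 2045, 1693 and 1788 in control and 3340, 2846 and 3662 in LPS PMφs. Its rise was smaller, with a log2 difference of 0.83 ± 0.122, or 1.78-fold (adjusted p = 0.000791). Both Hk2 and Hk1 were called under each scaling tried. Hk3, a hexokinase gene outside the members, was more abundant than either per kilobase of exon. It was at 3569 normalized counts per kb in control and 6060 in LPS PMφs. Hk2 was at 298 and 1074, and Hk1 at 216 and 385. Undivided, Hk3 was at 12456 to 13957 in control and 19249 to 23874 in LPS PMφs, without overlap. With quantile normalization Hk3 was not called higher.

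Pfkp and Pfkfb3 act at the committed step. Pfkp (ENSMUSG00000021196, chr13:6579768-6648777, minus strand), the platelet-type phosphofructokinase, was at 2382, 2572 and 2047 in control and 4717, 5922 and 6120 in LPS PMφs. The groups did not overlap, and the log2 difference was 1.26 ± 0.134, or 2.39-fold (adjusted p = 0.000147). Pfkfb3 (ENSMUSG00000026773, chr2:11471433-11554077, minus strand) makes fructose 2,6-bisphosphate, the strongest allosteric activator of phosphofructokinase. It was at 1443, 1780 and 1294 in control and 7764, 2835 and 4565 in LPS PMφs. The groups were separate but the LPS libraries were spread widely, and number 2, the highest in control, was the lowest with LPS. The log2 difference was 1.64 ± 0.328, or 3.11-fold (adjusted p = 0.00388). Without number 1, whose LPS library was the highest, the blocked difference was 1.24 (adjusted p = 0.00285).

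The aldolases were the 2 genes called lower. Aldoa (ENSMUSG00000030695, chr7:126795234-126800751, minus strand), the main aldolase of most tissues, was at 29565, 28135 and 26204 in control and 23140, 22047 and 23817 in LPS PMφs. Every LPS library was below every control library, and the log2 difference was −0.28 ± 0.114 (adjusted p = 0.0702). Aldoc (ENSMUSG00000017390, chr11:78322968-78327781, plus strand), the brain-type aldolase, was at 319, 228 and 246 in control and 236, 141 and 175 in LPS PMφs. The LPS library numbered 1 lay inside the control range, and the log2 difference was −0.54 ± 0.218 (adjusted p = 0.0703). Both calls were near the threshold. Leaving out a single library ended the Aldoa call for LPS number 2 and each control number, and the Aldoc call for LPS numbers 2 and 3 and control numbers 1 and 3.

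Pgk1 (ENSMUSG00000062070, chrX:106187100-106203699, plus strand), which makes the first ATP of the payoff phase, was at 4013, 3199 and 2965 in control and 5798, 4817 and 5028 in LPS PMφs. The groups did not overlap, and the log2 difference was 0.63 ± 0.135, or 1.55-fold (adjusted p = 0.00545). With equal totals it was 0.14 and was not called (adjusted p = 0.452), and with quantile normalization it was 0.04 (adjusted p = 0.860). Ldha (ENSMUSG00000063229, chr7:46841475-46855627, plus strand), the muscle-type subunit that turns pyruvate into lactate, was at 13921, 13781 and 9758 in control and 16892, 15078 and 13317 in LPS PMφs. The groups overlapped, but the LPS library was higher in all 3 numbers. The log2 difference was 0.29 ± 0.168 (adjusted p = 0.189), and it was called with the block (adjusted p = 0.0414) and with the block without number 1 (adjusted p = 0.0442). The direction of Ldha flipped to −0.20 with equal totals (adjusted p = 0.402, and 0.0790 with the block) and to −0.53 with quantile normalization (adjusted p = 0.0448).

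Slc16a3 (ENSMUSG00000025161, chr11:120948480-120960868, plus strand) encodes MCT4, the lactate exporter of highly glycolytic cells. It was at 1919, 2146 and 1162 in control and 4194, 2554 and 2746 in LPS PMφs. All LPS libraries were above the control libraries, with number 2 the nearest to them. The log2 difference was 0.87 ± 0.266, or 1.83-fold (adjusted p = 0.0250), and it was not called with equal totals, at 0.39 (adjusted p = 0.285). Nor was it called with quantile normalization, at 0.43 (adjusted p = 0.258). Between libraries numbered 1, 2 and 3, Slc16a3 differed by 1.13, 0.25 and 1.24 on the log2 scale, and Pfkfb3 by 2.43, 0.67 and 1.82. Number 2 thus had the smallest rise of both. The plot of values by library shows all 10 genes side by side.

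**Figure D2:**
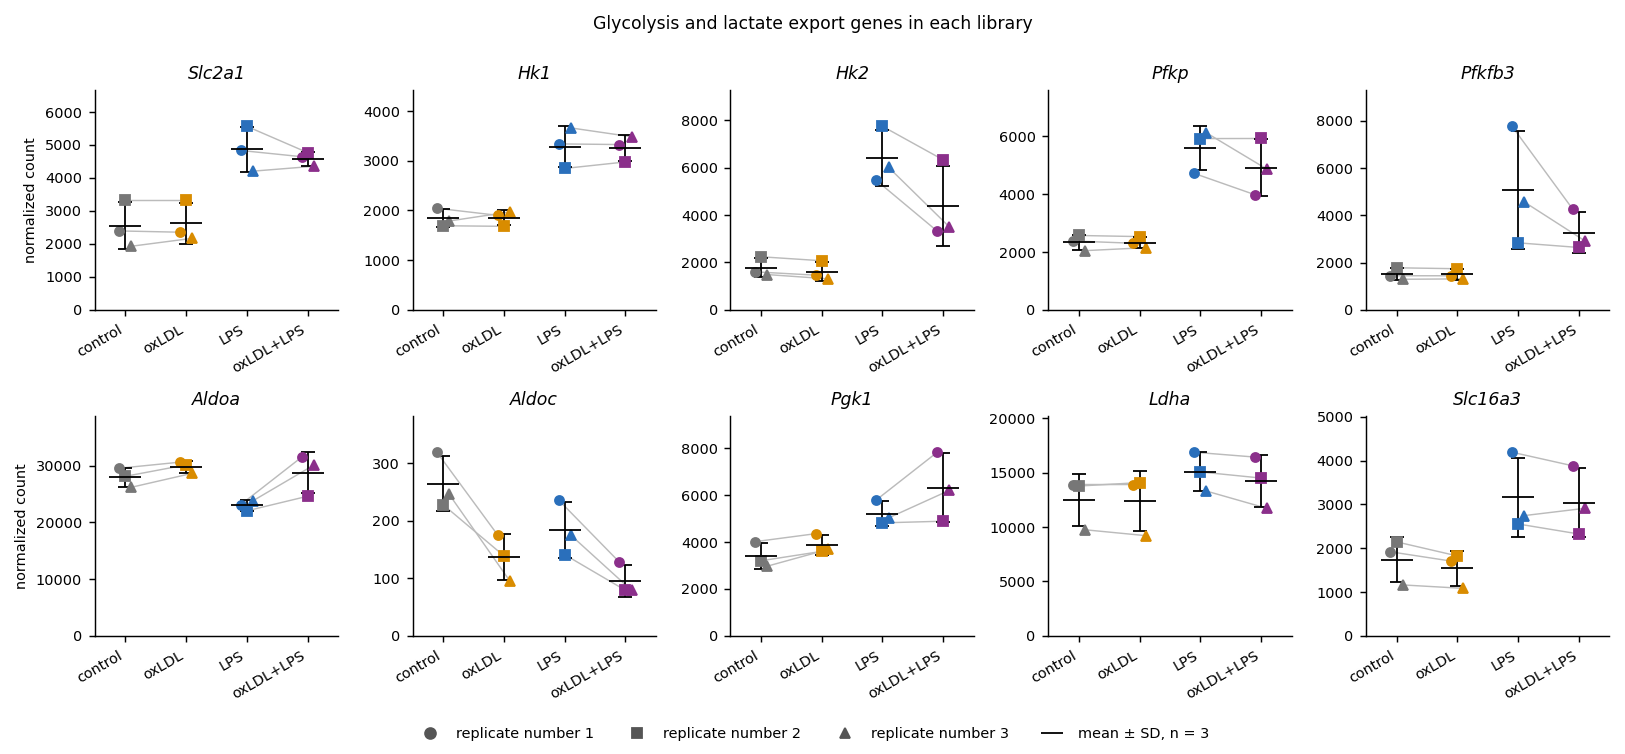
Normalized count of each gene in every library, with symbols for the replicate numbers, grey lines between same-numbered libraries with and without oxLDL, and black marks for the mean ± SD of 3 libraries. Axes start at 0. The 3 LPS libraries lie above the 3 control libraries for 7 genes and below them for Aldoa, and oxLDL libraries lie below control libraries for Aldoc.

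LPS was then compared in PMφs that had accumulated oxLDL, with libraries that the first comparison did not use. The 2 comparisons are not independent, since the methods describe pools divided among the groups. Same-numbered libraries with and without oxLDL deviated together, with correlations of 0.691 to 0.731 without LPS and 0.664 to 0.733 with it. The same 7 genes were called higher and none was called lower, 7 of 10 against 54.5% of all 12900 genes tested, of which 28.2% were called higher and 26.3% lower. In the same 7 the groups did not overlap, against 29.6% of all genes higher, 28% lower and 57.6% in all. With the block, 9 were called against 63.4% of all genes (32% higher), the additions being Ldha higher and Aldoc lower. With the block without number 1, 7 were called higher and 1 lower, against 62.3%, with 31.8% higher and 30.5% lower. With all 12 libraries and the block, 8 were called higher and 1 lower, against 65.7%, with 32.9% higher and 32.7% lower. The median log2 difference was 0.82 over the 10 genes and −0.02 over all genes. With equal totals the median of all genes was −0.41, 2031 genes were called higher and 6660 lower in place of 3633 and 3397, and 67.5% of genes were called, 15.8% higher and 51.7% lower. Then 6 members were called higher and 2 lower, and with quantile normalization the same counts were called against 55.3% of all genes.

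Hk2 was at 1465, 2074 and 1312 in oxLDL and 3323, 6331 and 3499 in oxLDL+LPS PMφs, with no overlap. Its log2 difference was 1.40 ± 0.275, or 2.64-fold (adjusted p = 0.00473). Pfkfb3 was at 1442, 1740 and 1311 in oxLDL and 4250, 2638 and 2913 in oxLDL+LPS PMφs. Its log2 difference was 1.10 ± 0.191, or 2.15-fold (adjusted p = 0.00271). Number 2 again had the smallest Pfkfb3 rise, 0.60 on the log2 scale, and the largest Hk2 rise, 1.61.

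Slc2a1 was at 2355, 3345 and 2169 in oxLDL and 4645, 4768 and 4354 in oxLDL+LPS PMφs, a log2 difference of 0.83 ± 0.160 (adjusted p = 0.00435). Hk1 was at 1902, 1681 and 1971 in oxLDL and 3327, 2977 and 3484 in oxLDL+LPS PMφs, a log2 difference of 0.82 ± 0.0978 (adjusted p = 0.000444). Pfkp was at 2303, 2533 and 2149 in oxLDL and 3979, 5925 and 4858 in oxLDL+LPS PMφs, a log2 difference of 1.06 ± 0.149 (adjusted p = 0.000974). All 3 genes were separate between the groups and were also called with equal totals. Pgk1 was at 4355, 3600 and 3681 in oxLDL and 7830, 4888 and 6205 in oxLDL+LPS PMφs, a log2 difference of 0.68 ± 0.174 (adjusted p = 0.0150), which with equal totals was 0.29 and not called (adjusted p = 0.215). With quantile normalization the Pgk1 value was 0.17 and was not called (adjusted p = 0.480). Slc16a3 was at 1706, 1824 and 1083 in oxLDL and 3883, 2325 and 2913 in oxLDL+LPS PMφs, a log2 difference of 0.99 ± 0.246 (adjusted p = 0.0135). These 2 genes also did not overlap between the groups.

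The aldolases and Ldha were not called in lipid-loaded cells on the deposited scale without the block. Aldoa was at 30639, 30157 and 28663 in oxLDL and 31512, 24629 and 30118 in oxLDL+LPS PMφs, a log2 difference of −0.06 with a 95% interval from −0.37 to 0.25. With equal totals the Aldoa value was −0.45 and was called (adjusted p = 0.0259). Aldoc was at 175, 139 and 95 in oxLDL and 128, 79 and 79 in oxLDL+LPS PMφs, a log2 difference of −0.51 ± 0.289 (adjusted p = 0.192), called with the block (adjusted p = 0.0362). With equal totals the Aldoc value was −0.89 and was called (adjusted p = 0.0361). Ldha was at 13918, 14096 and 9216 in oxLDL and 16445, 14515 and 11719 in oxLDL+LPS PMφs, a log2 difference of 0.21 ± 0.201 (adjusted p = 0.431). With the block Ldha was called (adjusted p = 0.0878), but not with the block without number 1 (adjusted p = 0.139), and its direction flipped with equal totals to −0.18 (adjusted p = 0.480) and with quantile normalization to −0.48 (adjusted p = 0.09997).

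**Figure D3:**
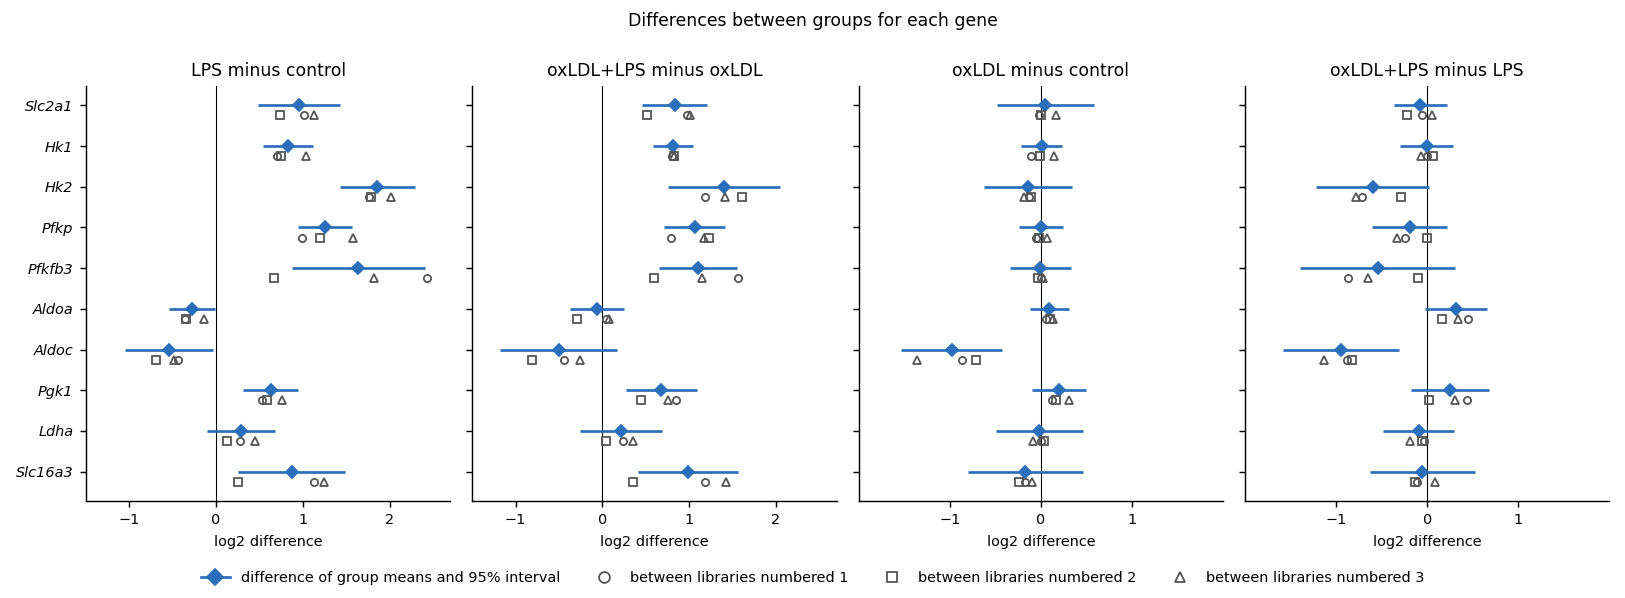
Log2 differences of the 10 genes in 4 comparisons. Diamonds are differences of group means with 95% intervals from the fit without a block, and open symbols are differences between same-numbered libraries, of which number 1 does not pair the same mix of mice across LPS states. LPS differences range from −0.54 (Aldoc) to 1.86 (Hk2) without oxLDL, and only Aldoc has an interval that leaves out 0 in both oxLDL comparisons.

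oxLDL was next compared with control in the absence of LPS. Aldoc was at 0.507 times its control level and the other 9 transcripts differed by less. Aldoc was at 319, 228 and 246 in control and 175, 139 and 95 in oxLDL PMφs, so that every oxLDL library was below every control library. Of the 10 genes, Aldoc alone did not overlap, against 7.7% of the 12751 genes tested, 3.79% higher and 3.91% lower. The Aldoc log2 difference was −0.98 ± 0.236, or 0.507 times the control level, and the libraries numbered 1, 2 and 3 differed by −0.86, −0.71 and −1.36. An exact permutation test of 3 against 3 libraries cannot go below p = 0.1, the value that Aldoc had.

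No gene was called in this comparison without the block by limma, and 381 of the 12751 genes had an unadjusted p under 0.05. The replicate numbers pair control and oxLDL libraries, and with the block 601 genes were called, or 4.71%, of which 1.8% of all genes were higher and 2.92% lower. Among these were 3 of the 10 members. Aldoc was lower (adjusted p = 0.00199), Pgk1 was higher by 0.20 ± 0.0485 (adjusted p = 0.0592) and Slc16a3 was lower by −0.17 ± 0.0465 (adjusted p = 0.0919). Only Aldoc of these remained called without number 1, beside 214 of 12376 genes, or without number 2, beside 139 of 12368. All 3 and Hk2 were called without number 3, beside 1285 of 12451. With all 12 libraries in the fit and the block, none of the 10 was called (Aldoc adjusted p = 0.105) and 5 genes were, or 0.0371%.

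The intervals of the other members were narrow with the block. Hk2 was at 1465, 2074 and 1312 with oxLDL, lower than control in all 3 numbers, and its blocked difference was −0.14 with a 95% interval from −0.24 to −0.05 (adjusted p = 0.131). Slc2a1 differed by 0.05 (−0.06 to 0.16), Hk1 by 0.01 (−0.11 to 0.12) and Ldha by −0.02 (−0.13 to 0.09). Aldoa differed by 0.09 (−0.04 to 0.23). For Pfkp the interval ran from −0.10 to 0.10 and for Pfkfb3 from −0.10 to 0.09. A p above the threshold does not show equal levels, and these intervals give the differences that the 3 pairs leave possible. Most of the spread of Slc2a1, Pfkfb3 and Ldha in these 6 libraries lay between replicate numbers, with 97.3%, 99.6% and 99.1% of the variance of the log2 values. In both groups Slc2a1, Hk2, Pfkp, Pfkfb3, Aldoa, Ldha and Slc16a3 were lowest in number 3, the number with the lowest sum of mesothelial and fibroblast markers, and the part of those cells in the levels was not tested.

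Finally, oxLDL+LPS was compared with LPS, which asks whether lipid loading changes the stimulated level. Hk2, Pfkfb3, Aldoc and Ldha were lower in loaded cells in all 3 replicate numbers, and Aldoa and Pgk1 were higher in all 3. Of these, Ldha differed by only −0.04, −0.05 and −0.18 on the log2 scale in numbers 1, 2 and 3, and Pgk1 by 0.02 in number 2. How many of all genes kept 1 direction in all 3 numbers was not counted. Hk2 was at 5466, 7750 and 6018 in LPS and 3323, 6331 and 3499 in oxLDL+LPS PMφs. The groups overlapped because number 2 stood above the others in both, and its difference was the smallest. The Hk2 log2 difference was −0.60 ± 0.264 without the block (adjusted p = 0.709) and −0.60 ± 0.102 with it (adjusted p = 0.0129), or 0.661 times the LPS level.

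Pfkfb3 was at 7764, 2835 and 4565 in LPS and 4250, 2638 and 2913 in oxLDL+LPS PMφs. The differences between the libraries numbered 1, 2 and 3 were −0.87, −0.10 and −0.65 on the log2 scale, with number 2 the smallest. The Pfkfb3 mean was −0.54 ± 0.127 with the block (adjusted p = 0.0378). Aldoc was at 236, 141 and 175 in LPS and 128, 79 and 79 in oxLDL+LPS PMφs, without overlap. Its log2 difference was −0.95 ± 0.131 with the block (adjusted p = 0.00737), or 0.518 times the LPS level.

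Aldoa was at 23140, 22047 and 23817 in LPS and 31512, 24629 and 30118 in oxLDL+LPS PMφs. These groups did not overlap either, so that Aldoa and Aldoc, which catalyse the same step, were separate in opposite directions. Of the 10 genes these 2 did not overlap, against 12.6% of all genes. The Aldoa log2 difference was 0.31 ± 0.111 with the block and was not called (adjusted p = 0.122), but with equal totals and the block it was 0.40 and was called (adjusted p = 0.0507). Pgk1 was at 5798, 4817 and 5028 in LPS and 7830, 4888 and 6205 in oxLDL+LPS PMφs, a blocked difference of 0.25 ± 0.0930 (adjusted p = 0.136), and with equal totals and the block it was called at 0.34 (adjusted p = 0.0760).

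Without the block no gene of 12786 was called by limma, and 890 had an unadjusted p under 0.05. With the block 1682 genes were called, or 13.2%, and 8.74% were called lower. The 3 members called were Hk2, Pfkfb3 and Aldoc, all lower. With all 12 libraries in the fit and the block, only Hk2 and Aldoc of the members were called, beside 7.53% of all genes. Pfkfb3 was not called there, nor with quantile normalization and the block. The calls depended on which numbers entered the fit, which then held 2 pairs, while the blocked differences stayed at −0.75 to −0.50 for Hk2, −0.76 to −0.38 for Pfkfb3 and −1.01 to −0.85 for Aldoc. Without number 1 only Aldoc was called among the members (adjusted p = 0.0937), beside 71 of 12266 genes. Without number 2 the called members were 6, which added Pfkp, Aldoa and Pgk1, beside 2945 of 12334 genes. Without number 3 no gene of 12452 was called. Number 2 also had the smallest oxLDL response of Hmox1, the oxidant-induced heme oxygenase, which was at 16282, 8326 and 8635 in LPS and 55988, 12622 and 43842 in oxLDL+LPS PMφs. Whether the 2 move for the same cause was not tested.

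The remaining members were not called between LPS and oxLDL+LPS PMφs. Slc2a1 was at 4645, 4768 and 4354 with both agents, a blocked difference of −0.08 (95% interval −0.26 to 0.11). Ldha differed by −0.09 (−0.30 to 0.11) and Slc16a3 by −0.05 (−0.23 to 0.12). Pfkp differed by −0.19 (−0.39 to 0.00). Hk1 was the closest, at 3340, 2846 and 3662 in LPS and 3327, 2977 and 3484 in oxLDL+LPS PMφs, with an interval from −0.17 to 0.16.

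The interaction tests directly whether the LPS difference was another one in loaded cells. No member was called, and no gene of 13482 was called by limma without the block, where 418 had an unadjusted p under 0.05, or with the replicate number as a block, where 967 had. With a block for each replicate number within each LPS state, an alternative chosen after the sex-linked genes were seen, 147 genes were called, or 1.09%, none of them a member. In that fit Hk2 had an interaction of −0.45 with a 95% interval from −0.71 to −0.19 (unadjusted p = 0.00284, adjusted p = 0.137), and Pfkfb3 one of −0.54 with an interval from −0.88 to −0.19 (unadjusted p = 0.00606, adjusted p = 0.178). Single libraries moved both values in the fit without a block. The Pfkfb3 interaction was −0.17 without LPS number 1 and −0.89 without LPS number 2, and that of Hk2 was −0.26 without oxLDL number 2 and −0.75 without oxLDL+LPS number 2. The LPS rise of Hk2 was 3.62-fold without and 2.64-fold with oxLDL, and that of Pfkfb3 3.11-fold and 2.15-fold. The interaction of Aldoa was 0.22 (−0.02 to 0.47). Aldoc had an interaction of 0.03 (−0.39 to 0.46), its oxLDL difference being −0.98 without and −0.95 with LPS, in libraries that the 2 differences do not share. Same-numbered libraries also deviated together across LPS states, so these 2 differences are not independent.

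The other genes of the pathway were taken from a list of 39, of which 34 were tested in the LPS comparison of unloaded cells. LPS raised 9, lowered 15 and left 10 short of the threshold, beside 31.4% of all genes higher and 30.3% lower, with a median log2 difference of −0.27 against 0.00 for all genes. By role, 1 of 3 glucose transporters rose and 2 fell, 2 of 4 genes of hexose phosphorylation and upper glycolysis rose and 2 fell, 1 of 9 genes of lower glycolysis rose and 3 fell, and 3 of 12 genes of lactate and pyruvate handling rose and 5 fell. Of 4 regulators of fructose 2,6-bisphosphate 1 rose and 2 fell, and of the 2 glucose-linked arrestins (Txnip and Arrdc4) 1 rose and 1 fell. With equal totals, 3 were called higher and 24 lower, and of the 9 genes of lower glycolysis 0 were called higher and 7 lower. The transporter Slc2a6 rose most, from 251 to 393 in control libraries to 16343 to 23554 in LPS libraries, a log2 difference of 5.95 ± 0.192 (adjusted p = 3.92e-07). Pdk2, a kinase that inhibits pyruvate dehydrogenase, fell by 3.48 ± 0.239, Pfkfb2, an isoform of Pfkfb3, by 1.96 ± 0.156, and the monocarboxylate transporter Slc16a7 by 1.55 ± 0.126 on the log2 scale.

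In oxLDL-loaded cells LPS raised 6 of the 34 other genes and lowered 11, beside 28.2% of all genes higher and 26.3% lower, with Slc2a6, Pfkfb2, Slc16a7 and Pdk2 again the 4 with the smallest p. Slc2a6 was higher by 5.75 ± 0.319 and Pdk2 lower by −2.59 ± 0.412. With the block, oxLDL lowered 1 of 34 in cells without LPS, Slc2a6 (−0.38 ± 0.102, adjusted p = 0.0824), and 2.92% of all genes were called lower. Between oxLDL+LPS and LPS PMφs the block called 4 of 33 genes higher and 1 lower, beside 4.42% of all genes higher and 8.74% lower. The lower one was Slc2a6 (−0.58 ± 0.118, adjusted p = 0.0222). The higher ones were Gpi1, the isomerase between hexokinase and phosphofructokinase (0.32 ± 0.0869, adjusted p = 0.0581), Pfkfb4 (0.37 ± 0.107, adjusted p = 0.0710), Pkm, which makes pyruvate (0.37 ± 0.107, adjusted p = 0.0713), and Slc2a8 (0.42 ± 0.133, adjusted p = 0.0919). Without number 1, none of the 33 was called.

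**Figure D4:**
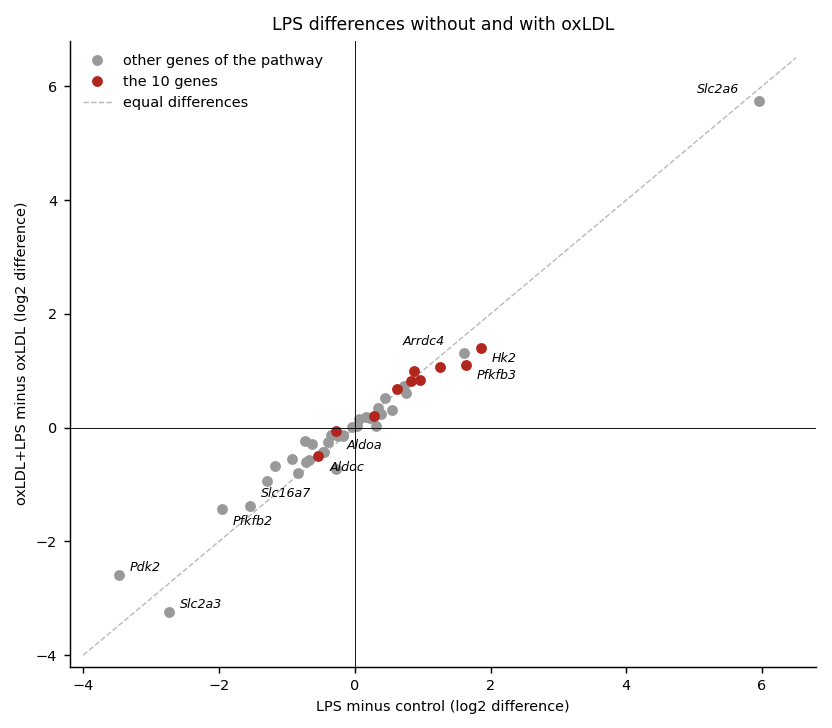
Log2 difference between LPS and control (x axis) against that between oxLDL+LPS and oxLDL (y axis) for the 10 genes (red) and the other genes of the pathway tested in both (grey), with a dashed line of equal differences. No library enters both axes, but same-numbered libraries with and without oxLDL deviated together, so the axes are not independent. Hk2 and Pfkfb3 lie below the line, with 1.86 against 1.40 and 1.64 against 1.10, and Slc2a6 is at 5.95 and 5.75.

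The pattern of each gene over the 12 libraries was set beside that of 13482 genes, with the mean of each replicate number removed. The coefficients describe libraries that share the LPS difference and, by the methods, may share pools, so that high values are common. Hk2 was closest to Klf6 (Pearson r = 0.998) and Kremen1 (0.997), and Pfkp to Vcam1 and Etv6 (both 0.998). Slc2a1 was closest to Atm (0.995) and Srp54b (0.992), Hk1 to Gm16685 and Gpr84 (both 0.997), and Pfkfb3 to Dock11 (0.989) and Tceb3 (0.987). Pgk1 was closest to the proteasome genes Psmb3 and Psma1 (both 0.987), Ldha to Dstn (0.985) and Prex1 (0.974), and Slc16a3 to Tbc1d2b (0.989). The aldolases had the least close neighbours, which were Tuba4a (0.975) and Nsf (0.970) for Aldoa and Far1 (0.964) and Cd24a (0.955) for Aldoc. Among the members, 8 had coefficients of 0.764 to 0.986 with each other, whereas Aldoa was at −0.712 to −0.170 and Aldoc at −0.692 to −0.140 with these 8, and the 2 aldolases were at −0.254 with each other.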

How the data were processed

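The 12 libraries were poly(A) RNA-seq libraries of PMφs, 3 per group. Per the study's methods and the processing notes, the tools were Trimmomatic 0.32 for trimming, STAR 2.5.1b with mm10 (GRCm38) for alignment, featureCounts for counting and DESeq2 for the authors' own tests. The kit was directional, and use of the strand in counting is not given in the sources used here, so overlapping genes on the other strand are uncertain. The deposited score is a whole number that has the spacing of a read count that the authors scaled by 1 number for each library before rounding, and tests for raw counts were therefore not run. Symbols turned into dates (25) were left out.

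Groups were compared with limma 3.58.1 in R 4.3.3 (lmFit, eBayes with a trend) on log2 of the value plus 1, a scale that understates changes of low genes. A gene was tested if 3 or more of the fitted libraries reached 10, and called if its p, after Benjamini-Hochberg adjustment, was below 0.1. Each pairwise fit used its own 6 libraries and the interaction used all 12. Scripts were tested on simulated data. Positions and exon lengths are from GENCODE vM21 (GRCm38), a later release than the one the study names for counting. No 2 libraries held the same values. The study's methods describe repeated independent experiments with n as biological replicates, and the labels do not tie a library to an experiment or pool. The p-values measure the spread between these libraries.

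Same-numbered libraries deviated together from their group means over 11186 genes, with correlations of 0.691 to 0.731 between control and oxLDL, 0.664 to 0.733 between LPS and oxLDL+LPS, 0.410 to 0.617 between control and LPS and 0.330 to 0.665 between oxLDL and oxLDL+LPS. Genes were named by a rule: all 10 members, up to 4 genes per comparison of a wider list among those called, in order of p, 2 genes per member with the closest pattern (1 of them is not reported here), and check genes for LPS and oxLDL. Slc2a8 and Hk3 were named after their values were seen. The members, lists and tests were chosen with earlier results of these data known. Alternatives were the replicate block, all 12 libraries in a fit, another pseudocount (10), other filters, equal totals, quantile normalization and leaving out each library. Scalings combined with the block and the block within each LPS state were added after the data were seen.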

Additional observations from a re-analysis of the deposited data

How the results depend on the processing

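Over the alternatives, 826 of 1000 recomputed member differences kept their direction and their side of the threshold, 54 came past it and 23 no longer passed it. Another 97 changed sign, 92 of them past the threshold in neither setting, and of the 97 there were 4 in LPS against control, 6 in LPS in loaded cells, 29 in oxLDL against control, 22 in oxLDL+LPS against LPS and 36 in the interaction. The 5 that changed sign and passed the threshold were all Ldha. Against control its LPS difference was −0.53 with quantile normalization (adjusted p = 0.0448, and 0.00190 with the block) and −0.20 with equal totals and the block (adjusted p = 0.0790). In oxLDL-loaded cells it was −0.48 with quantile normalization, without and with the block (adjusted p = 0.09997 and 0.00469).

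The LPS counts of members varied little when libraries were left out and more with scaling. With 1 library left out, 7 to 9 were called against control, beside 6881 to 7690 of 12566 to 12757 genes tested. In loaded cells 7 to 8 were called, beside 5838 to 6699 of 12560 to 12631. With the block and 1 number left out, 8 to 10 were called against control, beside 6577 to 8085 of 12092 to 12314. In loaded cells 8 were called, beside 5737 to 7550 of 12113 to 12256. Against control, 7 higher and 2 lower became 5 and 2 with equal totals and 4 and 3 with quantile normalization. In loaded cells 7 and 0 became 6 and 2 with both. The replicate block changed the oxLDL counts most. For oxLDL against control, members and genes called went from 0 and 0 to 3 and 601 with the block, 3 and 707 with equal totals and the block, 2 and 422 with quantile normalization and the block, and 0 and 5 with all 12 libraries and the block. With the block and 1 number left out they ran from 1 to 4 members and from 139 to 1285 genes, with 1 and 214 without number 1. For oxLDL+LPS against LPS they went from 0 and 0 to 3 and 1682 with the block, 5 and 1618 with equal totals and the block, 3 and 986 with quantile normalization and the block, and 2 and 1015 with all 12 libraries and the block. With the block and 1 number left out they ran from 0 to 6 members and from 0 to 2945 genes, which includes 1 member and 71 genes without number 1 and fewer libraries in the fit. Leaving out oxLDL+LPS number 2 without the block gave 91 genes. For the interaction, genes called ran from 0 to 6 with 1 library left out (6 without oxLDL+LPS number 2) and from 0 to 9 with the block and 1 number left out, and were 147 with the block within each LPS state. The cause of these differences was not tested. With quantile normalization and the block, the 3 members called between oxLDL+LPS and LPS were Hk2 and Aldoc, lower, and Aldoa, higher by 0.46 (adjusted p = 0.0551). With the same setting Aldoc was called lower by LPS in loaded cells, at −0.38 (adjusted p = 0.0906). On the deposited scale with no library left out, the block in the pairwise fits changed no other member's call than those given.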

Other observations

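The precision rests on 3 libraries per group, which the labels do not tie to pools of mice, and the smallest exact p for 3 against 3 libraries is 0.1. Counting noise was small beside the spread between replicates, since the median squared difference between replicate libraries was 5.49 to 13.6 times that of counting. Aldoc, at 79 to 319, was the least deeply counted member. Protein levels, lactate and flux were not analysed here, and transcript levels of these genes do not measure them. GENCODE gives the symbol Aldoa to another gene model as well. The annotation names 2 pseudogenes of Aldoa, 3 of Pgk1 and 2 of Ldha, and how their shared reads were counted was not tested.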
